A study of Mus musculus with 15 samples.

Results

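The interferon response genes are a list of 42 genes that cells switch on after interferon, and their chromatin was followed through the ATAC-seq peaks that lie nearest to them. A peak of the consensus table was taken as a member where its nearest protein-coding gene interval, with the peak centre inside it or within 100 kb, belonged to the list. This gave 242 of 206367 peaks, at 39 of the 42 genes. Of the member peaks, 135 had their centre inside the gene, 216 lay inside it or within 10 kb, and 4 lay inside more than 1 gene interval. Mx1 and Mx2 are annotated as transcribed pseudogenes and the peak at the start of Ifit1 falls inside the neighbouring Ifit1bl2 interval, so these 3 genes have no member peak.

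Omni-ATAC-seq, in which a transposase cuts accessible DNA and the cut fragments are sequenced, was run on mouse embryonic fibroblasts labelled with a C57/B16 background, in 5 groups of 3 libraries. The cells of 4 groups carried a CRISPR activation construct (VPR, a fused transcriptional activator) with an mCherry reporter and were sorted as mCherry+/THY1+ after lentiviral infection with either scrambled guides (early control, late control) or guides against Fosl2, which encodes the AP-1 transcription factor subunit Fra2 (early Fra2, late Fra2). Early is day 3 and late day 10 in most sample labels, day 4 and day 11 in the series design, and early control 3 is labelled day 4. The fifth group had 3 days of 4 uM GSK343, which blocks the histone methyltransferase Ezh2, then a washout day, and is labelled day 4. Transduction and sorting of the inhibitor cells are not stated. Separate cultures for the libraries of a group are not stated either, and p-values here reflect only library-to-library spread, possibly technical.

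Interferons are secreted proteins by which infected cells warn their neighbours. Their receptors act through JAK kinases to bring STAT2 and IRF9 into a complex that binds the interferon-stimulated response element (ISRE) near the starts of its target genes. The products sense foreign nucleic acid, block viral replication, tag proteins with ISG15, load antigens for T cells and, through USP18, damp the response; fibroblasts are a classical producer and responder cell.

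The ISRE was searched for as GAAA, any 2 bases and GAAA on both strands of RefSeq promoters of GRCm38.p6, the assembly also called mm10, from 250 bases before to 50 after each start. Of the 42 genes 34 had such a promoter, and 16 of them (47.1%) held a match, compared with 3.99% of 27025 genes. The letters of the gamma-activated site, TTCNNNGAA, were held by 10 of the 34 (29.4%) against 9.55% of genes, and the AP-1 letters, TGANTCA, by 7 (20.6%) against 8.97%. The 250 bases upstream of 5 starts that hold a match there are shown, so they do not stand for all lower start peaks. The first 4 had a start peak that was lower late than early, while the start peak of Bst2 did not pass the test. The start peaks of Irf7, Oasl1, Oasl2, Ifih1 and Psmb8 were also lower late. Their 250 upstream bases hold no match and are not shown. Capitals mark the ISRE matches, which overlap in Isg15, Oas1a and Bst2; the first match begins 78 bases before the start of Isg15, 156 before Ifit3, 120 before Rsad2, 20 before Oas1a and 130 before Bst2.
Isg15 (chr4:156200819-156201068, minus strand): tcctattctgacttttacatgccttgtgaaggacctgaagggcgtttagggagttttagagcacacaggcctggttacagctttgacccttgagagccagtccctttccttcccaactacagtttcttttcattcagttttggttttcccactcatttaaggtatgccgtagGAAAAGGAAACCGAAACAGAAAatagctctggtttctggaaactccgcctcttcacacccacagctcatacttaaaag
Ifit3 (chr19:34583279-34583528, plus strand): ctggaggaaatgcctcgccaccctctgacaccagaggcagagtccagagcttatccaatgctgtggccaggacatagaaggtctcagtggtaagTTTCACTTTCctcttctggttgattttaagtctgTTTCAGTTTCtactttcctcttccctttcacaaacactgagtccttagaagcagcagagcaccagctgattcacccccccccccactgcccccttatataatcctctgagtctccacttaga
Rsad2 (chr12:26456453-26456702, minus strand): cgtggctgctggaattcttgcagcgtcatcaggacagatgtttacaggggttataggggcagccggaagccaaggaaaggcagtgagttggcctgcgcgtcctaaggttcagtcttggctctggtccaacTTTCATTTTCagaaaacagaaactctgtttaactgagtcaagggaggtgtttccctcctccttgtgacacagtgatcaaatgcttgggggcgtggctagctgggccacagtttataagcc
Oas1a (chr5:120907526-120907775, minus strand): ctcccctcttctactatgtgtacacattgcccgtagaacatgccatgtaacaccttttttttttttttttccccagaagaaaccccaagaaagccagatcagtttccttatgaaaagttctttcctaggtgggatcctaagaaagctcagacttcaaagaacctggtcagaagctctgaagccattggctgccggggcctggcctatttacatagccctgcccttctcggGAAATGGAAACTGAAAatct
Bst2 (chr8:71537473-71537722, minus strand): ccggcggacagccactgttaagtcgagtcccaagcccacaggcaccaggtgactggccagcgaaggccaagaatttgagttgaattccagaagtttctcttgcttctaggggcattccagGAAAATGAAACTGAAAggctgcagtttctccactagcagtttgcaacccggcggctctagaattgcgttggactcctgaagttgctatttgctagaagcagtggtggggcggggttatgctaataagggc
These sequences are those of the reference, and a match says nothing on which factor is bound. Among the genes with both a promoter sequence and a start peak, 5 of 9 whose start peak was lower late held the ISRE letters, and 7 of the other 20.

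Depth ran from 6.75 to 25.3 M (mega) reads in peaks per library, and 3 reads correspond to 0.117 to 0.420 CPM (counts per mega reads in peaks, after TMM scaling), which covers counting error only. Early control 3 was the shallowest library and correlated with another library of its group at 0.783 at lowest, where the lowest value within any other group was 0.896. The S numbers in the titles run from 1 to 6 in the early and 7 to 12 in the late libraries, so whatever they stand for and time cannot be told apart. Peaks within 1 kb of the starts of 7 of 9 fibroblast markers held 5.78 to 7.13 CPM each on average in early controls, 5.83 to 6.43 in early Fra2, 6.22 to 6.64 in late controls, 5.07 to 5.40 in late Fra2 and 5.07 to 5.62 in inhibitor libraries, so that late Fra2 lay below early Fra2 without overlap. Start peaks of 3 of 4 endothelial markers held 2.56 to 3.75 and of 2 of 4 epithelial markers 8.12 to 14.2 CPM. Those of 2 of 7 macrophage and leukocyte markers lay at 6.04 to 7.35 CPM in early and 6.98 to 8.31 CPM in late libraries. These ranges overlap only when control and Fra2 cells are pooled. Within control cells, and within Fra2 cells, every late library lay above every early one. The part of fibroblast and leukocyte markers in the changes described here was not tested. In bulk libraries, fewer cells with an open site and a less open site in each cell cannot be told apart.

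Late cells had less accessible chromatin than early cells at part of the peaks of interferon response genes. Called means an adjusted p under 0.05 in the quasi-likelihood test of edgeR, with Benjamini-Hochberg adjustment over all 206349 peaks that passed the count filter, which held all 242 member peaks. In the mean of the control and Fra2 arms, 38 of the 242 peaks (15.7%), at 23 genes, were called lower late than early and 5 higher, against 3.18% and 3.19% of all tested peaks. The median log2 fold change was −0.10 over the members and 0.00 over all peaks, as it also was for the inhibitor against early controls. With scaling factors from gene-end peaks, which moved the median of all peaks to 0.05, the split was 32 lower and 10 higher. In that fit 2.32% of all tested peaks were called lower and 5.83% higher. The 5 higher calls became 3 without early Fra2 2, early Fra2 3, early control 2, late Fra2 1 or late control 2. They became 2 without late Fra2 3, and in these fits 1.89% to 2.54% of all tested peaks were called higher. The lower count stayed between 31 and 46 whichever library was left out, against 2.16% to 4.46% of all tested peaks. All 38 lower peaks had a log2 fold change under 0 in each arm, which calling them on the mean of these arms favours. In 17 of them all 6 early libraries lay above all 6 late ones. Over the member peaks that separation was seen in 18 (7.44%), against 0.721% of all peaks, and the opposite one in 2, against 0.601%.

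Peaks at the starts of these genes were among those lower late. Of the 53 member peaks within 1 kb of any annotated start, 13 (24.5%) were called lower, where 2.14% of all start-window peaks were. With 1 start peak per gene (the peak of highest mean level within 1 kb of the start, or of either end for genes without a strand in the reference), 33 genes could be described, and 31 of their log2 fold changes were below 0. Their median was −0.19, and the median of all start-window peaks was also below 0, at −0.06. The share of all start-window peaks below 0 was not counted. The 10 called were all lower: Isg15, Ifit3, Oasl1, Rsad2, Oas1a, Oasl2, Dhx58, Irf7, Ifih1 and Psmb8. The start peaks of the other 23 genes lay between −0.28 (Gbp2) and 0.12 (Ddx58). Most of the 33 start peaks were also below 0 in comparisons that do not set late against early. These were 24 for early Fra2 (median −0.14), 30 for late Fra2 (−0.27) and 28 for the inhibitor against early controls (−0.18). The medians of all start-window peaks there were −0.22, −0.23 and −0.16. Summed over the 33 start peaks, the level was 400.8, 365.7 and 283.5 CPM in early controls, 342.0, 322.7 and 292.5 in early Fra2, 281.2, 320.2 and 336.9 in late controls and 257.3, 253.7 and 255.2 in late Fra2 libraries. Late Fra2 was the lowest group in that sum, and early control 3 lay under 2 of the 3 late controls. The median level of all start-window peaks of the genome was 5.91 to 7.11 CPM in early and 5.81 to 6.88 CPM in late libraries.

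**Figure D1:**
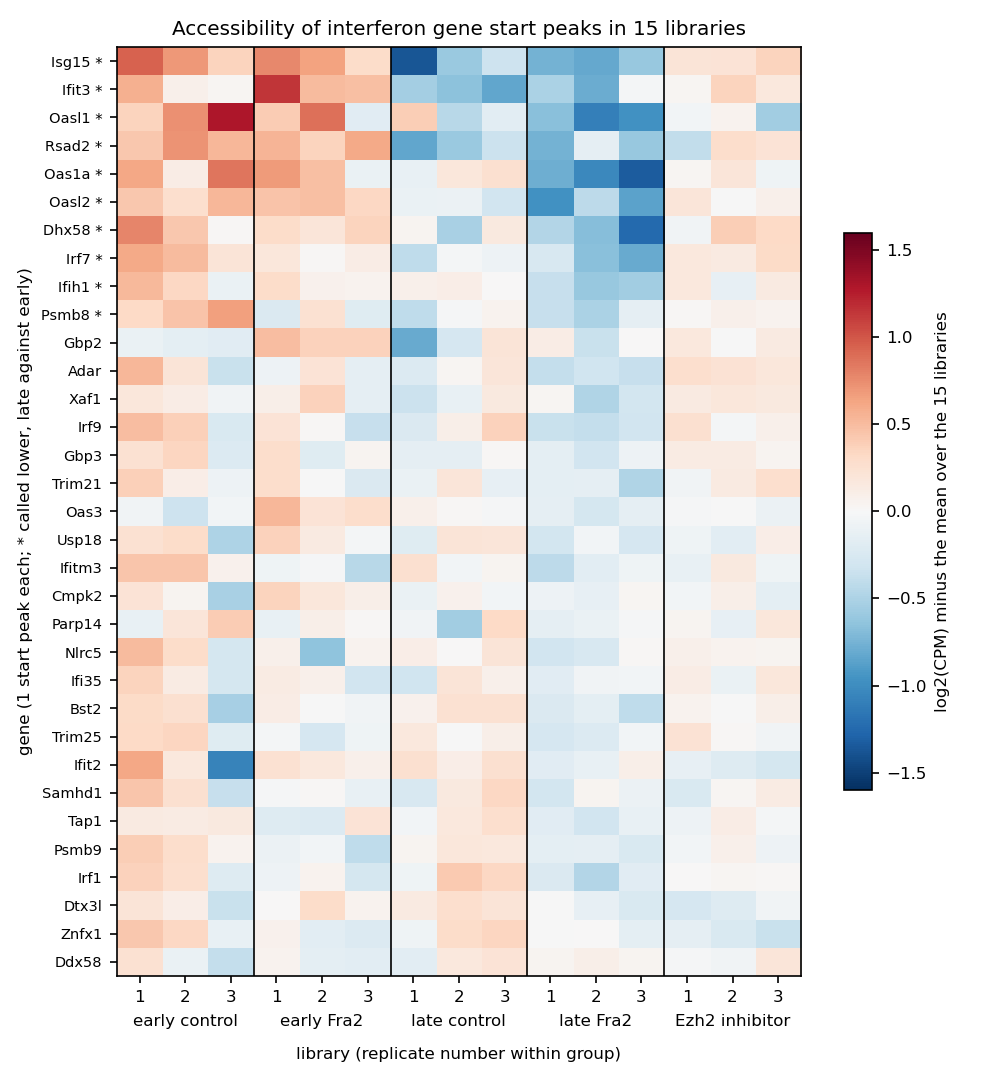
Heat map of 33 interferon gene start peaks (rows, ordered by the change from early to late) in 15 libraries (columns, 3 per group). Colour is log2 CPM minus the row's mean over the libraries; asterisks mark the 10 peaks called lower late, whose early columns are redder and late columns bluer.

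Regulators were led by the STAT2-IRF9 pair. Of 40 regulator peaks 7 were called lower and 1 higher. Stat2, whose protein is the transactivating partner of IRF9, had a peak 1.6 kb inside the gene (chr10:128271817-128272318) at 4.19, 3.56 and 4.76 CPM in early controls, 3.04, 2.40 and 2.67 in early Fra2, 1.79, 1.27 and 1.71 in late controls and 1.11, 1.55 and 1.35 in late Fra2. Every late library lay below every early one, and the log2 fold change was −1.21 ± 0.18 (SE; edgeR adjusted p 1.03e-05). Irf9, the DNA-binding part of the complex, had 2 of its 3 peaks lower, at −1.28 ± 0.27 and −1.08 ± 0.23, while its start peak was at −0.25 and not called. In the first of these (chr14:55608001-55608502) early control 3, at 6.16 CPM, stood above the 1.88 and 1.96 CPM of the other early controls. Irf7, the factor that amplifies type I interferon production, had a start peak (chr7:141266214-141266715) at 18.6, 17.3 and 14 CPM in early controls and 13.8, 12.3 and 13.2 in early Fra2, against 9.19, 11.9 and 11.5 in late controls and 10.1, 7.68 and 6.94 in late Fra2. The groups did not overlap by time, and the change was −0.64 ± 0.11 (edgeR adjusted p 0.000115). Irf1, an interferon-gamma induced factor, had 2 peaks called lower, at −0.96 and −0.43, and 1 called higher, at 0.41, 18.8 kb from the gene. Nlrc5, the transactivator of MHC class I genes, had none of its 14 peaks called in this comparison (edgeR).

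Sensors of foreign RNA were lower late at 7 genes and higher at 3. Of 74 sensor peaks 10 were called lower and 3 higher. Oas1a, a 2',5'-oligoadenylate synthetase that turns on RNase L, had a start peak (chr5:120907286-120907787) at 7.35, 5.22 and 8.68 CPM in early controls, 7.69, 6.71 and 4.47 in early Fra2, 4.41, 5.43 and 5.73 in late controls and 2.78, 2.35 and 1.90 in late Fra2. The late Fra2 libraries were the lowest 3 of all, and late controls overlapped the early groups; the mean change was −0.91 ± 0.14 (edgeR adjusted p 1.25e-05). Oasl2, a related protein, had a start peak at 5.10, 4.57 and 5.46 CPM in early controls, 5.17, 5.28 and 4.76 in early Fra2, 3.51, 3.56 and 3.05 in late controls and 1.93, 2.83 and 2.09 in late Fra2, with no overlap between times and a change of −0.86 ± 0.14. A second Oasl2 peak, inside the gene, was called higher at 0.57. Oasl1, a translational brake on Irf7, fell by 1.07 on the log2 scale at its start, and Ifih1, a RIG-I-like receptor, by 0.45. Dhx58, also a RIG-I-like receptor, has no strand in the reference, and its start peak, taken near either end, fell by 0.80. Ddx58, which encodes RIG-I itself, had none of its 5 peaks called. Oas3 and Znfx1 each had 1 peak called higher, at 0.68 and 0.62, and Eif2ak2 (the kinase PKR) and Adar (an RNA-editing enzyme) 1 each called lower, at −0.60. The Oas, Ifit, Ifitm and Gbp genes lie in clusters of near copies, and how reads that map to several copies were treated is not stated, so their values are less certain.

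Antiviral effectors held the 4 largest changes, all at Isg15. Of 83 effector peaks 16 were called lower, at 9 genes. Isg15, the ubiquitin-like protein that is coupled to other proteins after interferon, had all 4 of its peaks called lower. Its start peak (chr4:156200599-156201100) held 12.7, 10.6 and 8.40 CPM in early controls, 11.2, 10.2 and 8.07 in early Fra2, 2.54, 4.34 and 5.24 in late controls and 3.90, 3.73 and 4.30 in late Fra2. The lowest early library was thus above the highest late one, and the change was −1.36 ± 0.13 (edgeR adjusted p 9.53e-11). The other Isg15 peaks, 1 inside the gene and 2 within 1 kb of its far end, changed by −1.54 ± 0.19, −1.62 ± 0.19 and −1.71 ± 0.16. At the last of these (chr4:156198312-156198813) early libraries held 4.45 to 6.68 CPM and late ones 1.33 to 2.19. Ifit3, which binds foreign RNA with other IFIT proteins, had a start peak (chr19:34583045-34583546) at 4.67, 3.34 and 3.22 CPM in early controls, 6.93, 4.48 and 4.40 in early Fra2, 2.17, 1.99 and 1.77 in late controls and 2.23, 1.81 and 3.07 in late Fra2. Again the times did not overlap, with a change of −1.08 ± 0.17 (edgeR adjusted p 1.52e-05). Rsad2 encodes viperin, which makes a chain-terminating nucleotide, and its start peak (chr12:26456204-26456705) held 4.29, 5.22 and 4.62 CPM in early controls, 4.65, 4.08 and 4.83 in early Fra2, 1.79, 2.11 and 2.50 in late controls and 1.88, 2.88 and 2.09 in late Fra2. This was a change of −1.06 ± 0.16 (edgeR adjusted p 1.23e-05) with no overlap between times.

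Bst2, the tetherin that holds budding virus at the cell surface, had its called peaks beside its start peak. The peak 0.7 kb before the gene (chr8:71537897-71538398) held 3.38, 3.05 and 5.32 CPM in early controls, 2.66, 3.12 and 3.10 in early Fra2, 1.34, 1.81 and 1.77 in late controls and 1.03, 1.81 and 2.39 in late Fra2, a change of −0.98 ± 0.20 without overlap. A peak inside Bst2 changed by −0.89 ± 0.14, while its higher start peak was at −0.10 (edgeR adjusted p 0.691). Peaks called lower were also found at Ifit2 (−0.98 and −0.68), Xaf1 (−0.76), Ifi35 (−0.64), Cmpk2 (−0.61, 8.6 kb away) and Ifitm3 (−0.56). Samhd1, Gbp2, Gbp3 and Ifi44 had no peak called in this comparison.

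**Figure D2:**
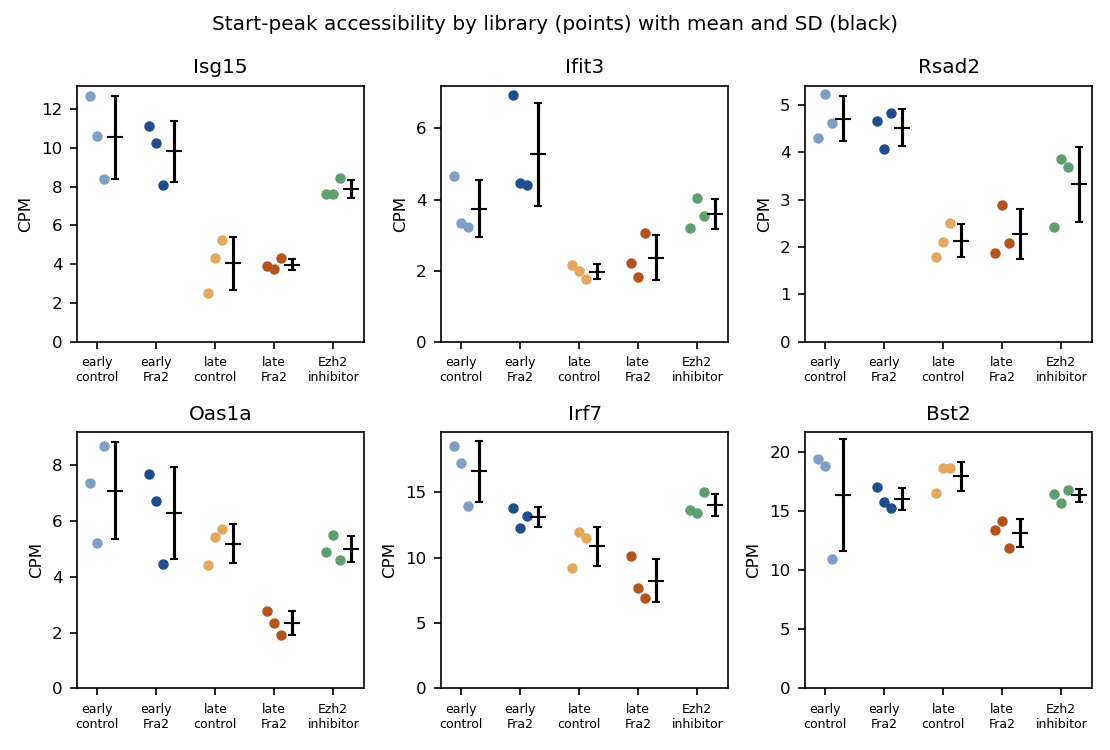
Level in CPM (vertical axes, from 0) at the start peaks of Isg15, Ifit3, Rsad2, Oas1a, Irf7 and Bst2 by group; points are libraries, the black mark and bar the mean and SD of 3. Isg15 falls from 8.07 to 12.7 CPM in early to 2.54 to 5.24 CPM in late libraries, Oas1a is lowest in late Fra2, and Bst2 shows overlapping groups.

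Enzymes that add or remove ubiquitin-like tags and ADP-ribose had 4 of 35 peaks called lower and 1 higher. Usp18, the protease that removes ISG15 and restrains the receptor, had 2 peaks lower, at −1.19 ± 0.23 and −0.93 ± 0.19. The first (chr6:121247803-121248304) held 2.68, 3.19 and 3.36 CPM in early controls, 2.18, 2.48 and 2.88 in early Fra2, 1.57, 1.45 and 1.52 in late controls and 0.514, 0.587 and 1.90 in late Fra2, so that late Fra2 3 stood above the other late Fra2 libraries but below every early one. Parp14, a mono-ADP-ribosyltransferase, had 2 peaks lower, at −0.80 and −0.41. Dtx3l, the ubiquitin ligase partner of Parp9, had 1 higher, at 0.57. Of the antigen presentation genes, with 10 peaks, only the start peak of the immunoproteasome subunit Psmb8 was called, at −0.42 ± 0.12 (edgeR adjusted p 0.0300), and Psmb9, Tap1 and B2m had none.

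Each call of the mean of both arms was refitted under 18 settings, and no called value turned its sign. Of the 38 lower calls 29 held in all of them, among them every Isg15, Stat2, Irf9, Usp18, Bst2, Ifit3, Rsad2, Oas1a and Oasl1 peak called, and of the 5 higher calls 0 did. Among start peaks Psmb8 lost its call with gene-end scaling (−0.37) and when early Fra2 2 (−0.35), early control 2 (−0.42), late Fra2 1 (−0.41), late Fra2 2 (−0.38) or late control 1 (−0.36) was left out. A Dhx58 peak at −0.70 was lost without early Fra2 3 (−0.64), and another at −0.81 without early Fra2 3, early control 1, late Fra2 1, late Fra2 2 or late control 2 (−0.60 to −0.76). The Irf1 peak at −0.43 was lost without early Fra2 1, early control 2, late Fra2 2, late control 1 or late control 2 (−0.37 to −0.41). The peaks given above for Ifit2 (−0.68), Cmpk2, Adar, Eif2ak2 and Parp14 (−0.41) lost theirs in 7 to 12 of the 18 settings, with gene-end scaling in each case. Of the higher calls, Oas3 was lost without early Fra2 3 (0.60) or late Fra2 3 (0.59), Dtx3l without early control 2 (0.43), Znfx1 without early control 1, late Fra2 3 or late control 2 (0.49 to 0.53), Irf1 without early Fra2 2, early Fra2 3, late Fra2 1 or late control 1 (0.34 to 0.41) and Oasl2 in 11 settings, DESeq2 among them (0.47 to 0.60).

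The arms, which share no library, were then read apart. In control cells 17 member peaks were called lower late and 4 higher, against 1.23% and 2.04% of all tested peaks, and in Fra2 cells 20 lower and 0 higher, against 1.09% and 0.393%. Of the higher direction in Fra2 cells DESeq2 also called 0. In either direction 63 member peaks (26.0%) had an unadjusted edgeR p under 0.05 in Fra2 cells, against 13.3% of all tested peaks. The lower calls had 9 peaks in common, 52.9% of the control-arm and 45.0% of the Fra2-arm calls, where over all peaks the shares were 19.5% and 22.0%. The direction was the same in the other arm for all 17 and for all 20. The start peak of Isg15 changed by −1.40 ± 0.19 in control and −1.32 ± 0.18 in Fra2 cells, and its other 3 peaks by −1.50 to −1.63 and −1.46 to −1.78. The next largest in control cells were Stat2 (−1.38), both Irf9 peaks (−1.32 and −1.30) and Bst2 (−1.18), and in Fra2 cells Oas1a (−1.42), Usp18 (−1.38), Oasl1 (−1.30) and Ifit3 (−1.19).

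Within an arm, single libraries moved the counts, and the shares of all tested peaks fell with them. In all 12 refits 6 of the 17 lower and 0 of the 4 higher control-arm calls held, and 9 of the 20 lower Fra2-arm calls. The control-arm count fell to 9 lower without late control 2 and to 11 without late control 3, against 0.405% and 0.684% of all tested peaks. The Fra2-arm count fell to 10 without early Fra2 1 (0.461% of all peaks) and 12 without late Fra2 2 (0.475%). It was 13 without late Fra2 1 (0.516%) or late Fra2 3 (0.51%). The 4 control-arm higher calls became 1 without early control 2 (0.977%) or late control 2 (0.709%). They became 2 without late control 1 (1.49%) or late control 3 (1.21%). In control cells 1 Irf9 peak (chr14:55608001-55608502) stood at −0.65 without early control 3, −1.18 without late control 2 and −1.16 without late control 3, none called; the other Irf9 peak was lost without late control 1 (−1.22) or late control 2 (−0.96) and the Bst2 peak without late control 1 (−1.07). In Fra2 cells the Ifit3 call was lost without early Fra2 1 (−0.92), the Oasl1 call without any 1 of the Fra2 libraries but early Fra2 3 (−1.05 to −1.45), and the Usp18 call without early Fra2 2 (−1.38), early Fra2 3 (−1.27), late Fra2 1 (−1.03) or late Fra2 2 (−1.13), while the Usp18 value was −2.17 without late Fra2 3. Fitted on the 6 control libraries alone, 6 member peaks were called lower and 0 higher, against 0.216% and 0.334% of all tested peaks. Gene-end scaling gave 14 lower and 7 higher, against 0.977% and 3.63%. Both Irf9 calls (−1.32 and −1.32) and the Bst2 call (−1.19) were lost in the fit of the control libraries alone, the first Irf9 call also with DESeq2 (−1.36) and gene-end scaling (−1.30), and the Oasl1 call in Fra2 cells with gene-end scaling (−1.24).

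**Figure D3:**
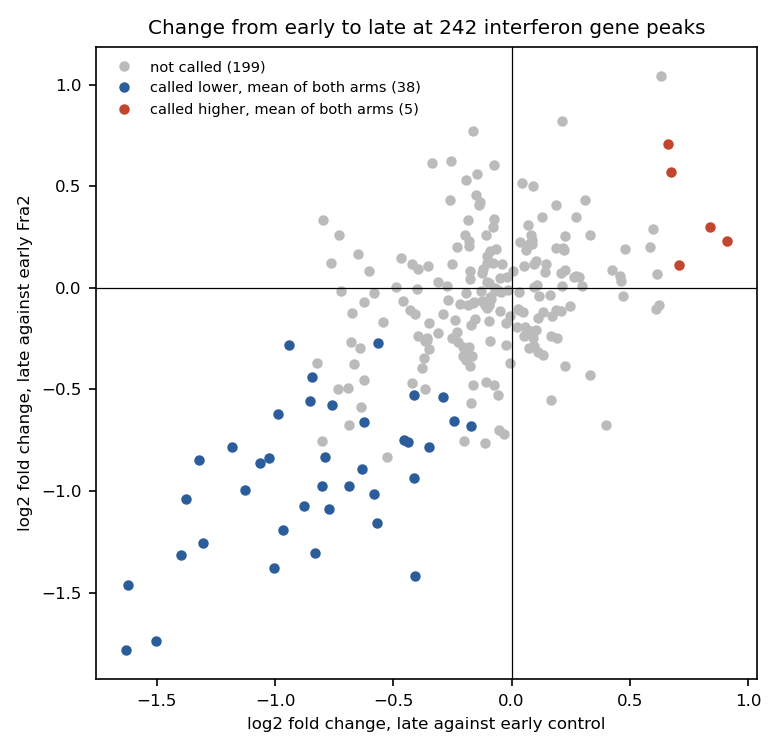
Log2 fold change from early to late in control cells (horizontal axis) and in Fra2 cells (vertical axis) for 242 member peaks, each a point. The 38 peaks called lower in the mean of both arms (blue) all lie below 0 on both axes, the 5 called higher (red) lie apart from them, and the 4 Isg15 peaks form the lower left end.

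Ifit1 and Mx2, named here after their values were seen, were read at their own ends because the assignment rule gives them no peak. The peak at the start of Ifit1 (chr19:34640569-34641070), an RNA cap sensor, held 8.55 and 7.07 CPM on average in early control and early Fra2 and 4.45 and 3.37 in late control and late Fra2. Its change was −0.997 ± 0.129 (edgeR adjusted p 2.99e-07). At the Mx2 interval, a dynamin-like antiviral gene, 4 peaks in a row at the low-coordinate end were called lower, at −0.77, −0.91, −1.38 and −1.24, and 1 at the other end (chr16:97560690-97561191) higher, at 0.62. That last peak held 3.81, 2.76 and 1.68 CPM in early controls, 9.54, 8.39 and 8.50 in early Fra2, 6.87, 8.39 and 7.80 in late controls and 9.50, 6.93 and 7.86 in late Fra2. Early controls lay below every library of these other groups, while the inhibitor libraries, at 4.26, 4.09 and 3.69 CPM, overlapped the early controls. The peak rose by 1.37 ± 0.20 in control cells and stood at −0.12 ± 0.16 in Fra2 cells. The Fra2 effect was 1.57 ± 0.19 early and 0.08 ± 0.16 late, a difference of −1.49 ± 0.26 (edgeR adjusted p 0.00406). None of 3 Mx1 peaks was called.

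Genes of the wider pathway were counted in the same way. In the mean of both arms, 1 of 24 peaks at interferon ligand genes was called lower and 0 higher, of 46 at receptors 1 and 1, of 75 at JAK kinases and Stat3 2 and 2, of 62 at other IRFs 0 and 2, of 42 at sensing adaptors 1 and 1, and of 108 at inhibitors 5 and 2. These counts are near the 3.18% lower and 3.19% higher of all tested peaks. Among JAK kinases and Stat3 the lower peaks were at Stat3 (−0.98) and Jak1 (−0.51, not called without early Fra2 1, early control 2 or late control 3), the higher ones at Jak2 and Tyk2, and among inhibitors 3 were at Socs3 and 1 at Socs1, feedback inhibitors of JAK kinases. Of 258 peaks at 34 other interferon-induced genes, 69 were called lower, at 17 genes, and 1 higher, at Cxcl9 (0.61, not called in 9 of the 18 settings). Rnf213, a large ubiquitin ligase singled out after its values were seen, gave 41 of these from its 51 peaks, with a median log2 fold change of −1.18. Without Rnf213, 28 of 207 peaks (13.5%) were lower, at 16 genes, with a median of −0.14. Trim30a (down to −1.59), Zbp1 (−1.42), Zc3hav1 (−1.38), Helz2 (−1.21) and Slfn2 (−1.20) had the largest changes of the 16.

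**Figure D4:**
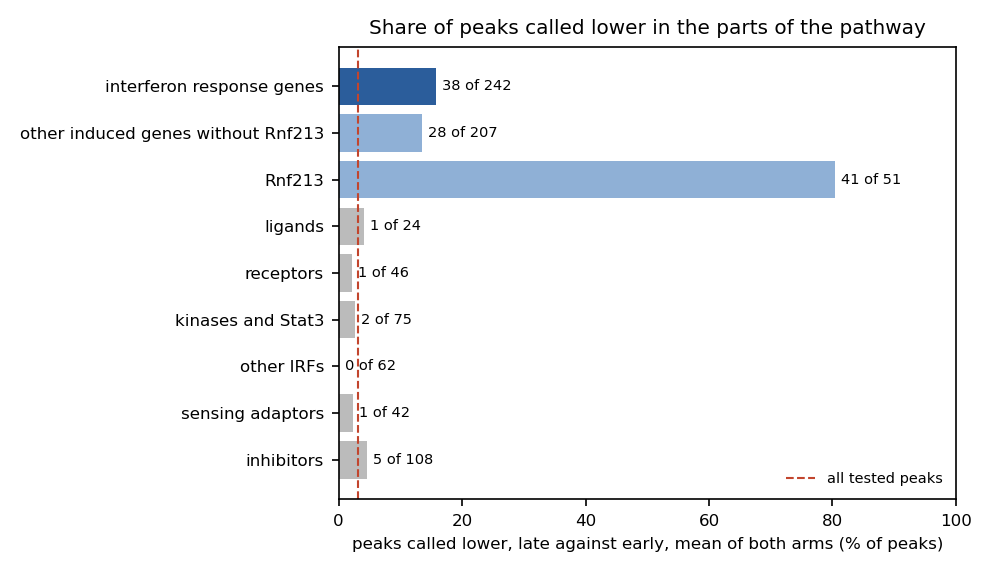
Share of peaks called lower, late against early in the mean of both arms (horizontal axis, percent of peaks), for each pathway list (bars, with counts); the dashed line is the 3.18% of all tested peaks. The interferon response genes stand at 15.7%, the other induced genes without Rnf213 at 13.5% and Rnf213 at 80.4%, and each other list has 0 to 5 called peaks.

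Fra2 activation was compared with scrambled guides at each time. At the early time 22 member peaks (9.09%), at 13 genes, were called higher and 9 lower, against 10.1% and 4.92% of all tested peaks, and late 16 (6.61%), at 9 genes, higher and 8 lower, against 6.44% and 3.54%. These shares are near those of all peaks. The split depended on the scaling. Gene-end peaks as the scaling basis moved the median of all peaks from −0.03 to 0.17 early and from −0.01 to 0.22 late. They gave 37 higher and 1 lower early, against 18.4% and 1.49% of all tested peaks. Late they gave 31 and 4, against 16.4% and 0.961%. DESeq2 gave 13 and 11 late, against 5.45% and 3.45%. The early comparison dropped to 9 higher without early Fra2 1 (6.86% of all peaks) and 13 without early Fra2 2 (7.48%). Its 9 lower became 5 without early control 2 (3.2%) and 20 without early control 3 (7.74%). The late comparison dropped to 9 higher and 4 lower without late Fra2 2 (3.46% and 1.21% of all peaks). It had 10 and 5 without late control 3 (3.1% and 1.18%), and 5 lower without late control 2 (1.47%).

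Of the higher peaks, 12 were called at both times, 54.5% of the early and 75% of the late calls, against 35.4% and 55.3% over all peaks; these comparisons share no library. The largest lay inside Dtx3l (chr16:35927498-35927999), 11.3 kb from its start. It held 2.15, 1.09 and 2.38 CPM in early controls and 8.54, 8.47 and 5.55 in early Fra2, a change of 2.05 ± 0.23 (edgeR adjusted p 1.26e-09). Late, it held 3.73, 3.20 and 2.92 CPM in controls and 9.50, 8.80 and 9.64 with Fra2, a change of 1.51 ± 0.19 (edgeR adjusted p 2.49e-07). The Fra2 and control libraries did not overlap at either time, and the inhibitor libraries held 3.56, 2.36 and 3.03 CPM. A peak 50.5 kb from Cmpk2, a mitochondrial nucleotide kinase, changed by 1.45 ± 0.28 early and 1.05 ± 0.25 late. One 2.7 kb from Rsad2 (chr12:26439745-26440246) held 4.19, 5.37 and 4.62 CPM in early controls against 10.3, 12.4 and 8.79 with Fra2, and changed by 1.15 ± 0.17 early and 0.83 ± 0.16 late. The Rsad2 start peak did not pass the test at either time, with −0.05 early and 0.08 late. A peak inside Samhd1, a dNTP hydrolase that restricts retroviruses, changed by 0.81 ± 0.23 early and 1.03 ± 0.20 late, and one 15.6 kb from Nlrc5 by 0.83 ± 0.23 and 0.91 ± 0.23.

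Other Fra2 calls came at 1 time. Late, a second Samhd1 peak was higher by 1.08 ± 0.26, a peak inside Nlrc5 by 0.89 ± 0.21 and one 3.0 kb from Gbp2 by 0.84 ± 0.26, and the start peak of Oas1a was lower, at 5.19 ± 0.692 CPM (SD, n = 3) in late controls and 2.34 ± 0.440 in late Fra2, a change of −1.13 ± 0.21 (edgeR adjusted p 0.000225). Early, that Oas1a change was −0.12, and the difference between times, −1.01 ± 0.28, did not pass the test (edgeR adjusted p 0.142). The late start peaks of Dhx58 (−0.65, taken near either end of the gene), Ifih1 (−0.57) and Irf1 (−0.54) were also lower. Early, peaks inside B2m (−1.22), Eif2ak2 (−1.06) and Adar (−0.90) and 0.8 kb from Trim25 (−1.09) were lower and one 7.3 kb from Dtx3l higher (1.04), while among start peaks Psmb8 (−0.52), Ifitm3 (−0.52) and Psmb9 (−0.43) were lower and Gbp2 (0.56) higher. Of the lower calls, 9 early and 8 late, 0 were shared, where over all peaks 15.8% of early and 21.9% of late lower calls were. For the difference of the Fra2 effect between times edgeR called 0 member peaks in either direction, where 0.0116% of all peaks were called higher and 0.0819% lower. For that difference 19 member peaks (7.85%) had an unadjusted edgeR p under 0.05, against 9.57% of all tested peaks. DESeq2 called 0, but it gave no adjusted p to 120019 of the 206349 peaks.

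Many of these calls were lost without 1 library or under another fit. Of the early calls, 6 of 22 higher and 1 of 9 lower held in all 12 refits. Of the late calls, 8 of 16 higher and 4 of 8 lower did. Among the early calls, B2m was lost without any 1 of the 6 libraries but early control 1 (−0.91 to −1.27), Trim25 without early Fra2 1 (−0.92) or early control 3 (−0.59), Eif2ak2 without early Fra2 2 (−0.75), Adar without early Fra2 1 (−0.67) or early control 1 (−0.82), and the Dtx3l peak without early Fra2 1 (0.97) or early Fra2 2 (0.86). Among the early start peaks, Psmb8 was lost without early Fra2 1, early Fra2 3, early control 2 or early control 3 (−0.43 to −0.53), Ifitm3 without early Fra2 3, early control 1 or early control 2 (−0.40 to −0.46), Psmb9 without any but early control 3 (−0.33 to −0.50) and Gbp2 without any but early control 3 (0.51 to 0.59). Of the late calls, Gbp2 was lost without late Fra2 2, late Fra2 3, late control 2 or late control 3 (0.73 to 0.85) and the Nlrc5 peak 15.6 kb away without late Fra2 2 (0.78). The late start peak of Dhx58 lost its call without late Fra2 2, late Fra2 3, late control 1 or late control 3 (−0.47 to −0.68), that of Ifih1 without late Fra2 2, late Fra2 3 or late control 2 (−0.52 to −0.54), and that of Irf1 without late Fra2 1, late Fra2 2, late control 2 or late control 3 (−0.44 to −0.57). Fitted on the compared groups alone, the early calls at B2m (−1.24), Trim25 (−1.11), Eif2ak2 (−1.07), Adar (−0.89), Psmb8 (−0.53), Ifitm3 (−0.51), Psmb9 (−0.43) and Gbp2 (0.56) were all lost, and Gbp2 was also lost with DESeq2 (0.55) and cyclic loess (0.52). The early call of the Nlrc5 peak 15.6 kb away was lost without early control 1 (0.56). With gene-end scaling the 7 lower early peaks named (−0.24 to −1.05) and these 3 late start peaks (−0.31 to −0.42) were not called. The Oas1a, Dtx3l, Cmpk2 and Samhd1 calls at the late time and the Dtx3l (gene-body), Cmpk2 and Rsad2 calls at the early time held under every alternative run.

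**Figure D5:**
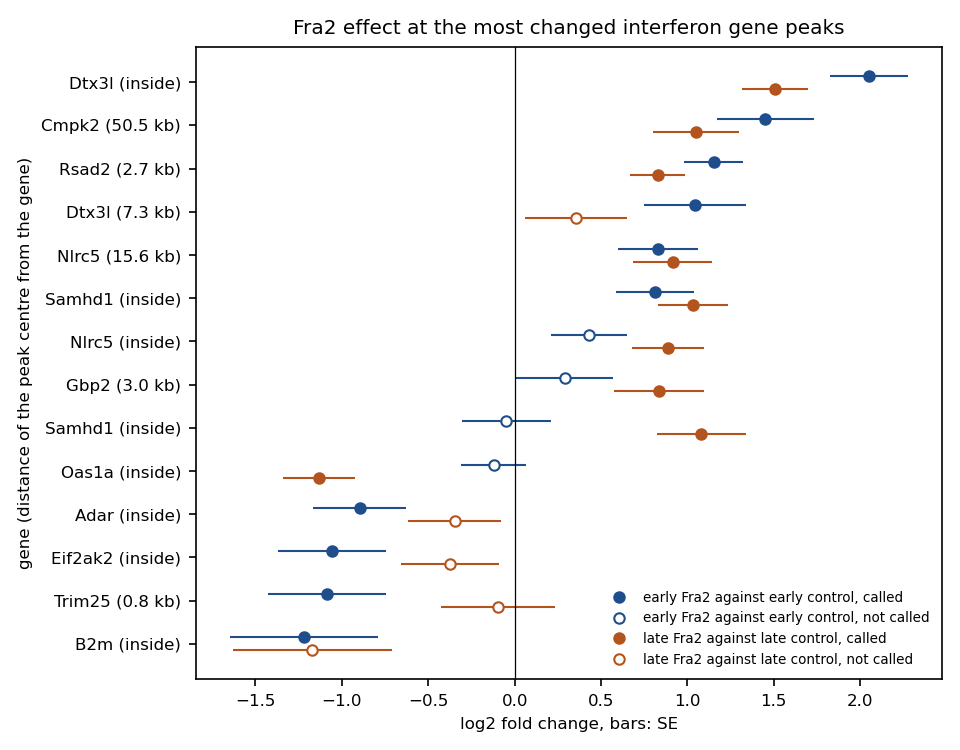
Log2 fold change with SE (horizontal axis) for Fra2 against control, early (blue) and late (orange), at the member peaks with the largest called changes (rows, with the distance of the peak from the gene); filled points are called, open points are not. The Dtx3l gene-body peak has the largest value at both times, and B2m, Trim25, Eif2ak2 and Adar are filled at the early time alone.

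Ezh2 inhibition changed no member peak past the threshold. Against early controls edgeR called 0 higher and 0 lower, where 0.552% and 0.341% of all tested peaks were called. An unadjusted edgeR p under 0.05 was seen at 30 member peaks (12.4%), against 14.7% of all tested peaks. The median log2 fold change was −0.10 over the members and 0.00 over all peaks, and 143 of the 242 members lay below 0. DESeq2 called 0 higher and 1 lower, against 0.421% and 0.339%. It gave no adjusted p to 84014 of the 206349 peaks. Without early control 3 there were 3 higher and 6 lower, against 1.42% and 2.24% of all tested peaks. Without early control 1 there was 1 lower, against 0.757%. Gene-end scaling, which moved the median of all peaks from 0.00 to 0.14, gave 8 higher, against 3.58%. At the Isg15 start peak the inhibitor libraries held 7.61, 7.63 and 8.43 CPM, above the 2.54 to 5.24 CPM of the late libraries and, in 1 of 3, within the 8.07 to 12.7 CPM of the early ones. The Stat2 peak stood at 3.91, 4.27 and 4.19 CPM in them, the Ifit3 start peak at 3.21, 4.04 and 3.53 and the Rsad2 start peak at 2.42, 3.86 and 3.69. No test of the inhibitor group against late cells was made, and its labels differ from those of the other groups in treatment, in S numbers (27 to 29) and perhaps in sorting, which cannot be told apart.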

How the data were processed

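Values start from the deposited table of raw read counts for 206367 consensus peaks, all but 1 of them 502 bp wide, in 15 libraries; the authors' counting tool is not given in the sources used here. In addition, 15 deposited peak lists, 1 per library, give a fold enrichment (ratio) and −log10 p and q values. Peaks were called with MACS2 on mm10, per the submitters' processing notes. The treatment of multi-mapping reads and of read shifts is likewise not stated.

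Peaks were assigned to the nearest of 21631 protein-coding RefSeq gene intervals (GRCm38.p6). Counts were fitted with edgeR 4.0.16 in R 4.3.3 (filterByExpr, which removed 18 peaks, TMM, quasi-likelihood F-test, 1 mean per group over all 15 libraries), with Benjamini-Hochberg adjustment over all tested peaks of each of 7 comparisons. The script was tested on simulated data. Errors are SE for log2 fold changes. Alternatives were DESeq2 1.42.0, no filter, gene-end TMM, cyclic loess (limma 3.58.1), only the compared groups, a replicate block, each library left out and assignment within 10 kb. Depth was 6.75 to 25.3 M (mega) reads in peaks per library.

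The genes, lists and tests were chosen with earlier results of these data known. The naming rule took 1 start peak per gene and, in each comparison, the 8 called peaks of largest change; other called peaks named were chosen after their values were seen. A pathway gene of the wider lists is not reported here. Replicate numbers were not used to pair libraries, since only 4 of 30 same-number pairs had correlated deviations over 0.1. No genome sequence was used here, so peak sequences were not read. Coordinates are 1-based.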

Additional observations from a re-analysis of the deposited data

Results flagged for a closer look

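The peak at the high-coordinate end of the Mx2 interval differed in its Fra2 effect between the times, by −1.49 on the log2 scale (late minus early; edgeR adjusted p 0.00406), and the difference stayed called in all 18 refits. The peak is assigned to Tmprss2 by the nearest-gene rule, so it is no member peak, and it was looked at because Mx2 is on the gene list.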

How the results depend on the processing

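Of the 43 calls for late against early in the mean of both arms, 34 to 43 were kept across the alternatives that refit the model. No called value of the member peaks, of the wider pathway lists or of Ifit1 and Mx2 changed its direction in those refits. With scaling on gene-end peaks the early Fra2 comparison gave 37 higher and 1 lower, and late Fra2 31 and 4. The inhibitor gave 8 higher, late against early control 7 higher and the mean of both arms 10 higher. In the same order, the shares of all tested peaks were 18.4% and 1.49%, 16.4% and 0.961%, 3.58%, 3.63% and 5.83%. Fitting only the compared groups gave 10 higher and 1 lower for early Fra2 and 18 lower for late Fra2. It gave 0 higher and 6 lower for late against early control and 1 higher for late against early Fra2. The matching shares of all tested peaks were 5.73% and 1.55%, 7.09%, 0.334% and 0.216%, and 1.07%. Cyclic loess gave 15 lower for early Fra2, 4 lower for the inhibitor, 1 higher for late against early Fra2 and 8 higher for the mean. Over all tested peaks these shares were 8.23%, 1.24%, 0.809% and 4.45%. DESeq2 gave 1 lower for the inhibitor and 2 higher for late against early control, against 0.339% and 1.73% of all tested peaks. The cause of these shifts was not tested.

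Leaving out each library in turn gave ranges of 9 to 22 higher and 5 to 20 lower for early Fra2, 9 to 14 and 4 to 9 for late Fra2, 0 to 3 and 0 to 6 for the inhibitor, 1 to 5 and 9 to 18 for late against early control, 0 to 0 and 10 to 19 for late against early Fra2, 2 to 6 and 31 to 46 for the mean, and 0 to 0 and 0 to 1 for the difference of Fra2 effects. Over all tested peaks the shares moved too. For early Fra2 they ran from 6.86% to 11.8% higher and 2.7% to 7.74% lower, for late Fra2 from 3.1% to 5.64% and 1.18% to 3.69%. For the mean they ran from 1.89% to 4.53% and 2.16% to 4.46%. For the inhibitor they were 0.0829% to 1.42% higher and 0.0237% to 2.24% lower. Late against early, control cells had 0.709% to 2.64% and 0.405% to 1.65%, and Fra2 cells 0.111% to 0.246% and 0.461% to 0.837%. For the difference they were 0.000485% to 0.0465% and 0.0102% to 0.242%. Without early control 3, the shallowest library, the lower counts were 20 for early Fra2, 6 for the inhibitor, 46 for the mean and 1 for the difference. The matching shares of all tested peaks were 7.74%, 2.24%, 4.46% and 0.211%.

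With the replicate number as a block the counts were 21 higher and 9 lower for early Fra2 and 16 and 8 for late Fra2. The shares of all tested peaks were 10.2% and 4.96%, and 6.38% and 3.51%. The inhibitor gave 0 and 0 (0.627% and 0.363% of all peaks) and the difference 0 and 0 (0.0126% and 0.11%). Late against early gave 4 and 19 in control cells (2.26% and 1.29%) and 0 and 20 in Fra2 cells (0.394% and 1.09%). The mean gave 5 and 37 (3.31% and 3.15%). The early Fra2 start-peak calls of Gbp2 (0.55) and Psmb9 (−0.43) were lost. Same-number pairs correlated at −0.19 to 0.26, and 6 of 15 libraries correlated best with their own number. With 3 libraries per group and 6.75 M reads in the shallowest, changes at peaks near the lowest member level of 1.02 CPM are the least precise.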

Other observations

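The deposited peak lists, called by the authors in each library, show how often the start peak was called. For Oasl1 it was in 4 of 6 early and 2 of 6 late lists, for Ifit3 and Rsad2 each in 5 early and 3 late lists, and for Isg15 in 6 early and 5 late lists. Oas3 and Ifit2 went the other way, with 5 early and 6 late lists, Oasl2 and Gbp2 had 5 of each, and the other 25 genes were in all 12. The early list without Oas3 and Ifit2 was that of early control 3, which also lacked Ifit3, Rsad2, Oasl1, Oasl2 and Gbp2. Early control 3, the shallowest library, had 26 of the 33 start peaks in its list and every other library 28 to 33. The fold enrichment at Isg15 in the authors' lists was 16.9, 10.9 and 5.14 in early controls and 4.83 and 6.34 in the 2 late controls that had it, and 17.0, 11.5 and 5.73 in early Fra2 against 7.79, 6.48 and 6.03 in late Fra2 lists, so that early and late lists overlapped. In the inhibitor lists it was 11.6, 10.9 and 40.4. The lists differ in depth and length (114359 to 305369 peaks), so these ratios describe each list and show no change between libraries.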
